A study of Homo sapiens with 18 samples.

Results

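The genes described here supply and clear the deoxynucleotides (dNTPs) that DNA polymerases use. There are 9 of them among the 58302 genes of the deposited count table: *RRM1*, *RRM2*, *RRM2B*, *TYMS*, *DTYMK*, *DUT*, *TK1*, *DCK* and *SAMHD1*. They were chosen by name for their role, with earlier results of these data known. All 9 were found in the table and all 9 passed the filter on low counts. RNA-seq was performed in U87MG cells, an established human glioblastoma line, kept under normal growth conditions (control, 2 libraries) or treated with Erastin at 10 μM for 72 h (2 libraries). Erastin deprives cells of cystine by acting on the antiporter system Xc-, and starved cells can then die by ferroptosis, in which iron drives the oxidation of membrane lipids. The comparison asks how the transcriptome of this line differed after treatment, and it holds 1 cell line, 1 dose and 1 time. The labels call the libraries biological replicates, title the control libraries U87-WT and name no vehicle for the control cells.

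Ribonucleotide reductase makes the building blocks of all 4 dNTPs by reducing ribonucleotides. Its large subunit, encoded by *RRM1*, holds the active site, and a small subunit supplies the radical that starts the reaction. There are alternative small subunits: *RRM2*, which is made in S phase and degraded afterwards, and *RRM2B* (p53R2), a p53 target that also serves cells that are not replicating. Thymidine nucleotides need further steps, namely methylation of dUMP by *TYMS*, phosphorylation of dTMP by *DTYMK* and removal of dUTP by *DUT*. Nucleosides are salvaged by *TK1* (thymidine) and *DCK* (deoxycytidine and purine deoxynucleosides), and *SAMHD1* breaks dNTPs down. In dividing cells many of these genes are transcribed most around the start of S phase, under E2F factors and the CCAAT-binding factor NF-Y.

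Most of these genes were lower after Erastin treatment, and *RRM2B* was higher. Promoter sequences of the 3 with the largest falls (*TK1*, *RRM2* and *DTYMK*) and of the one with the smallest change (*SAMHD1*) are shown, so that the letters shared by genes that moved together can be seen beside their values. Each is the 250 bases before a RefSeq start site on GRCh38.p14, 5′ to 3′ on the strand of the gene, with matches to the searched letters in capitals. The letters were CCAAT (the NF-Y box, ATTGG on the other strand), TTCCCGC and TTTGGCGC (E2F letters, the former read GCGGGAA on the other strand), and TTTGAA and TTCGAA (letters of the cell cycle homology region). Both strands were searched, and no match in the printed windows overlaps another. For *RRM2* and *TK1*, which have several RefSeq starts, the window with more matches is printed. The windows are chr2:10122489-10122738 (plus strand, *RRM2*), chr17:78187053-78187302 (minus strand, *TK1*), chr2:241686816-241687065 (minus strand, *DTYMK*) and chr20:36951709-36951958 (minus strand, *SAMHD1*). In the annotation used for counting, these 4 genes begin further upstream than the starts used here.
RRM2: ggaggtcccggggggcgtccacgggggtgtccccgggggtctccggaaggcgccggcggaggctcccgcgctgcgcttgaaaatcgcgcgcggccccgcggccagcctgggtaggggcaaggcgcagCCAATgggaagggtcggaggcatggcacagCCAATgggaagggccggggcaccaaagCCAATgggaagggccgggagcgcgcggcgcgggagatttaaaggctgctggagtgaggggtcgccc
TK1: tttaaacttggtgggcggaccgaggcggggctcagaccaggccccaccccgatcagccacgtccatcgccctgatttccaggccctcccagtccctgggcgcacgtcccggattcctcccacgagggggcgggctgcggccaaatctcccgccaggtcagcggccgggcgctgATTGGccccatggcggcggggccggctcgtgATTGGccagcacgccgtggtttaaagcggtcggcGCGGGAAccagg
DTYMK: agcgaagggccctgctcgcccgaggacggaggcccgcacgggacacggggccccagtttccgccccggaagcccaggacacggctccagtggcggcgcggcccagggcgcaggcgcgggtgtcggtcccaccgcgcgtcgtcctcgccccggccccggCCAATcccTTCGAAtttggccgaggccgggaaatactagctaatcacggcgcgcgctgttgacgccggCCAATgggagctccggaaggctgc
SAMHD1: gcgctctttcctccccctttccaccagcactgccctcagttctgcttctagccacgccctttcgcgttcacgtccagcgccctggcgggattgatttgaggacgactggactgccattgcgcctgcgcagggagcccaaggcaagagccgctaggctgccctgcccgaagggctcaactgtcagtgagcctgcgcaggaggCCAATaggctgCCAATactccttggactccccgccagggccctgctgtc

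The *RRM2* window holds CCAAT at 3 places, 123, 93 and 66 bases before the start site. The *TK1* window holds CCAAT on the other strand 77 and 46 bases before the start and the E2F letters TTCCCGC on the other strand 12 bases before it. The *DTYMK* window has CCAAT 92 and 24 bases before the start, with TTCGAA at 84 bases. The *SAMHD1* window, from the gene with the smallest change, also has CCAAT at 2 places, 49 and 38 bases before the start. CCAAT occurred on either strand in 34.6% of the 35116 RefSeq promoter windows of 300 bases (250 before to 50 after the start), at 2 or more places in 10.8% and at 3 or more in 3.26%. TTCCCGC occurred in 6.55%, TTTGGCGC in 0.652%, TTTGAA in 15.2% and TTCGAA in 1.45%. These shares are over single windows, whereas the printed *RRM2* and *TK1* windows were picked for having more matches. Windows were matched for 8 of the 9 genes and not for *RRM2B*, so the gene that was higher has no window here. Among those not printed, *DCK* held TTCCCGC 192 bases before its start and, on the other strand, 88 bases before it. It also held TTTGGCGC on the other strand 21 bases after the start. *TYMS* held TTCCCGC on the other strand 39 bases before its start. *RRM1* held TTCCCGC 223 bases before its start, together with TTTGAA on the other strand at 199 bases and CCAAT at 28 bases. Of the 4 *DUT* windows, 1 held, on the other strand, TTTGAA at 214 and 129 bases and TTCCCGC at 42 bases. The same window held TTTGGCGC on the strand of the gene at 27 bases, and the other 3 held none of the letters. The other *RRM2* window held CCAAT once, 249 bases before its start, and the other *TK1* window held none. A match describes letters in a window, and binding was not analysed here.

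The libraries had between 29412656 and 31513519 counts on genes. Levels are given in CPM, which are counts relative to a library size that TMM normalisation has corrected for composition. Groups were compared with edgeR's quasi-likelihood test over 16751 genes, with Benjamini-Hochberg adjustment over all of them. A gene was called higher or lower when its log2 fold change (Erastin against control) was at least 1 in size and its adjusted p was under 0.05. The smallest two-sided p of an exact permutation test of 2 against 2 libraries is 0.333, and the p-values of single genes therefore rest on a spread shared across genes. Of the 7 glial markers, *VIM* was high (48117 to 77887 counts) and *NES* had 77 to 1277 counts. *GFAP* (41 to 81 counts) and *OLIG2* (59 to 88) were low. *SOX2* (0 to 6 counts), *S100B* (0 to 2) and *AQP4* (0) were absent or nearly so. *CDKN2A* and *CDKN2B*, which are deleted in U87 cells, had 0 counts in every library. The 5 immune markers summed to between 0.458 and 1.18 CPM, with *CD3E* at 0.

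By both thresholds, *RRM2B* was called higher, and *TK1*, *RRM2* and *DTYMK* were called lower. Over all tested genes 6.24% were called higher and 9.34% lower. By the adjusted p alone, 8 of the 9 genes were lower and 1 higher, where 23.7% of all tested genes were lower and 23.2% higher. In all 9 genes the libraries of the groups did not overlap in CPM. Both Erastin libraries lay below both control libraries in 8 of the 9 and in 36.9% of all tested genes, and above them in 1 of the 9 and in 36.7% of all tested genes. The median log2 fold change of the 9 genes was −0.76, beside −0.0026 over all tested genes. In bulk RNA, fewer cells in a phase of the cell cycle and less RNA per cell cannot be told apart.

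**Figure D1:**
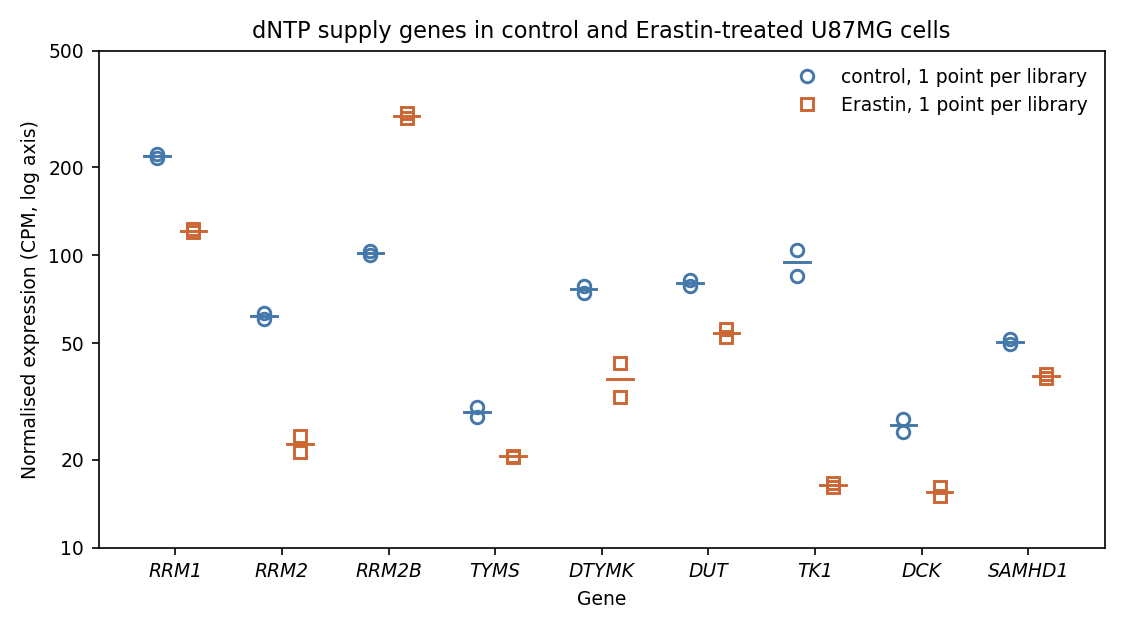
Normalised expression (CPM, log axis) of the 9 dNTP supply genes in each library, with control libraries as circles, Erastin libraries as squares and a line at each group's mean of 2 libraries. *RRM2B* is the gene whose Erastin squares lie above its control circles, and *TK1* shows the widest gap below them (104.5 and 84.8 CPM against 16.1 and 16.7 CPM).

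*RRM2B* (ENSG00000048392) encodes the p53-inducible small subunit and lies on chromosome 8 of GRCh38 from 102204502 to 102239118, minus strand. Counts were 3171 and 3105 in control and 8810 and 9593 after Erastin, or 103.7 and 99.95 CPM against 294.5 and 305.3 CPM. The Erastin libraries were close to each other and both far above the control libraries. The level was 2.94-fold that of control, a log2 fold change of 1.56 (SE 0.0670, adjusted p = 6.12e-09 by edgeR). No other gene of the annotation shares exon bases with *RRM2B*.

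*RRM2* (ENSG00000171848), the S-phase small subunit, lies on chromosome 2 from 10120698 to 10131419, plus strand. It had 1849 and 1973 counts in control and 720 and 668 after Erastin, or 60.5 and 63.5 CPM against 24.1 and 21.3 CPM. The groups were well apart, and the level after Erastin was 36.5% of control (log2 fold change −1.45, SE 0.0975, adjusted p = 2.60e-07 by edgeR). Not all of the gene could take counts. Another gene on the same strand (ENSG00000284681, between 0 and 7 counts per library) shares 1077 exon bases, 20.2% of the exon length of *RRM2*. Reads that matched more than 1 gene had not been counted. Of the 4246 exon bases that *RRM2* has to itself, 2186 form a single stretch, from 10129234 to 10131419, at the 3′ end of the gene. The table holds no counts by exon. The overlap applies equally to all 4 libraries, and its part in the fold change was not tested.

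*RRM1* (ENSG00000167325), the large subunit, lies on chromosome 11 from 4094707 to 4138876, plus strand. Its level was 221.6 and 215.8 CPM in control (6777 and 6705 counts) and 123.0 and 119.7 CPM after Erastin (3679 and 3760 counts). Replicates differed little and the groups did not overlap. The log2 fold change of −0.85 (SE 0.0658, adjusted p = 8.32e-07 by edgeR) passed the threshold on p and not that on size. Within ribonucleotide reductase, therefore, the large subunit and the S-phase small subunit were lower and the alternative small subunit was higher.

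Levels of different genes were compared per kilobase of exon. *RRM2B* stood at 18.7 and 18.0 CPM per kb in control and 53.1 and 55.0 CPM per kb after Erastin, and *RRM2* at 11.4 and 11.9 against 4.52 and 3.99 CPM per kb. *RRM2B* thus made up 62.2% and 60.2% of small-subunit transcripts in control cells and 92.2% and 93.2% after Erastin. The means were 61.2% ± 1.44 and 92.7% ± 0.766 (SD, n = 2 each), a difference of 31.5 percentage points, with an exact two-sided permutation p of 0.333, the smallest this design allows. The share depends on the length used for *RRM2*. With exon bases that belong to no other gene, the mean share rose from 55.7% to 91.0%, and with the longest such stretch of *RRM2* as its length, from 39.3% to 83.9%. That last choice divides all counts of *RRM2* by this stretch alone, as if every read lay on it, and so sets *RRM2* high. Under it *RRM2*, and not *RRM2B*, was the more abundant small subunit in control cells. *RRM2B* was the more abundant after Erastin under all of these lengths. The sum of both, chosen after its values were seen, was 30.05 and 29.95 CPM per kb in control and 57.6 and 59.0 CPM per kb after Erastin. It too depends on the length: with exon bases of no other gene it was 32.9 and 33.0 against 58.8 and 60.0 CPM per kb, and with the longest own stretch of *RRM2* it was 46.4 and 47.1 against 64.1 and 64.8 CPM per kb.

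**Figure D2:**
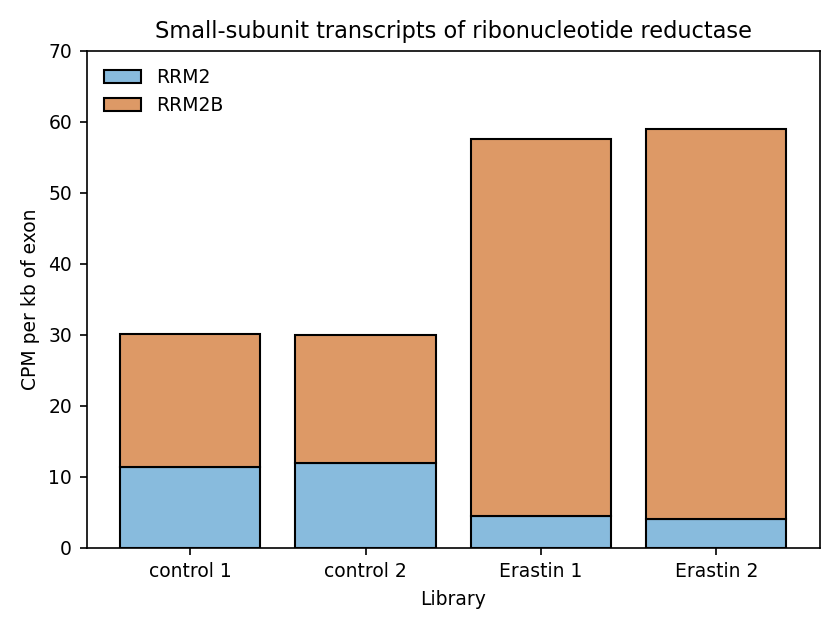
Levels of *RRM2* (blue) and *RRM2B* (orange) in CPM per kb of exon, stacked, with 1 bar per library and no error bars. The *RRM2B* part is 62.2% and 60.2% of the control bars and 92.2% and 93.2% of the Erastin bars, and the bars reach 30.05 and 29.95 CPM per kb in control and 57.6 and 59.0 after Erastin.

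*TK1* (ENSG00000167900), the cytosolic thymidine kinase of dividing cells, showed the largest fall of the 9. It lies on chromosome 17 from 78174075 to 78187233, minus strand. Its counts were 3196 and 2633 in control and 483 and 525 after Erastin, or 104.5 and 84.8 CPM against 16.1 and 16.7 CPM. The control libraries differed from each other by more than in the other 8 genes, yet the lower of them was far above both Erastin libraries. The level after Erastin was 17.4% of control (log2 fold change −2.53, SE 0.109, adjusted p = 6.40e-09 by edgeR). *TK2*, which encodes the mitochondrial thymidine kinase, had 57.2 and 54.6 CPM in control and 76.5 and 68.2 CPM after Erastin (log2 fold change 0.37, adjusted p = 0.00305 by edgeR). The difference between the changes of these kinases was not tested.

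*DCK* (ENSG00000156136), the kinase that salvages deoxycytidine and purine deoxynucleosides, lies on chromosome 4 from 70992538 to 71030914, plus strand. It stood at 25.0 and 27.6 CPM in control (763 and 858 counts) and at 16.1 and 15.0 CPM after Erastin (481 and 472 counts). The groups did not overlap, and the log2 fold change was −0.76 (SE 0.118, adjusted p = 0.000244 by edgeR), short of the threshold on size. *DGUOK*, its mitochondrial counterpart for purine deoxynucleosides, had 25.7 and 27.2 CPM in control and 27.7 and 29.6 CPM after Erastin (log2 fold change 0.11, adjusted p = 0.403 by edgeR). *DCK* shares 199 exon bases with *MOB1B* on the same strand.

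*DTYMK* (ENSG00000168393), the kinase that turns dTMP into dTDP, lies on chromosome 2 from 241675742 to 241686991, minus strand. Its level was 78.6 and 74.3 CPM in control (2403 and 2309 counts) and 42.7 and 32.7 CPM after Erastin (1277 and 1026 counts). The Erastin libraries differed from each other more than the control libraries did, and both lay below them. The log2 fold change of −1.02 (SE 0.112, adjusted p = 1.57e-05 by edgeR) was just past the threshold on size. It was −0.84 without Erastin replicate 2, −0.98 without control replicate 1 and −0.97 with library totals in place of TMM, and so was not called under these 3 alternatives.

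*TYMS* (ENSG00000176890), thymidylate synthase and the target of fluoropyrimidine drugs, lies on chromosome 18 from 657604 to 673578, plus strand. It had 30.2 and 28.0 CPM in control (923 and 870 counts) and 20.5 and 20.6 CPM after Erastin (613 and 647 counts). The log2 fold change was −0.50 (SE 0.108, adjusted p = 0.00244 by edgeR), beside −1.02 for *DTYMK*, which acts next in the pathway. The difference between these changes was not tested. Counting took no account of strand, and *TYMS* shares exon bases with 2 genes on the other strand. Reads on these shared bases matched more than 1 gene and had not been counted. *ENOSF1* shares 465 bases, 18.8% of the *TYMS* exon length, and was higher after Erastin (893 and 1027 counts against 1301 and 1481, log2 fold change 0.54, adjusted p = 0.000906 by edgeR). *TYMSOS* shares 183 bases and had 15 and 21 counts against 66 and 51 (log2 fold change 1.71, adjusted p = 0.00707 by edgeR). The part of these overlaps in the *TYMS* value was not tested.

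*DUT* (ENSG00000128951), the dUTPase that keeps uracil out of DNA and yields dUMP for *TYMS*, lies on chromosome 15 from 48331011 to 48343373, plus strand. Its level was 78.3 and 82.3 CPM in control (2393 and 2558 counts) and 52.6 and 56.0 CPM after Erastin (1574 and 1759 counts). The groups did not overlap, with a log2 fold change of −0.56 (SE 0.0771, adjusted p = 8.77e-05 by edgeR). It shares 533 exon bases with *DUT-AS1* on the other strand, which had between 11 and 60 counts per library.

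*SAMHD1* (ENSG00000101347), the triphosphohydrolase that breaks dNTPs down, changed least. It lies on chromosome 20 from 36890229 to 36951843, minus strand, and shares 205 exon bases with *TLDC2* on the other strand (4 to 34 counts per library). It had 51.5 and 49.7 CPM in control (1576 and 1543 counts) and 38.2 and 39.1 CPM after Erastin (1142 and 1230 counts). The log2 fold change was −0.39 (SE 0.0858, adjusted p = 0.00288 by edgeR). This change passed the threshold on p and not that on size.

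Of the remaining neighbours, *RRM1-AS1* shares 63 exon bases with *RRM1* and had at most 6 counts per library. *SYNGR2* and *AFMID* near *TK1*, *ING5* near *DTYMK* and ENSG00000263727 near *TYMS* share 0 exon bases with them. The 13 annotated pseudogenes of *RRM2*, *DUT* and *TYMS* had at most 12 counts in any library, and 8 of them had 0 in all 4.

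The order of levels per kilobase of exon differed between the groups. In control cells it ran *RRM1* (52.4 CPM per kb), *TK1* (50.9), *DTYMK* (31.2), *DUT* (21.9), *RRM2B* (18.4), *TYMS* (11.8), *RRM2* (11.7), *SAMHD1* (10.1) and *DCK* (8.15). The libraries of *RRM1* and *TK1* overlapped, as did those of *TYMS* and *RRM2*, so neither pair is ordered beyond its spread. After Erastin the order was *RRM2B* (54.1 CPM per kb), *RRM1* (29.1), *DTYMK* (15.4), *DUT* (14.8), *TK1* (8.83), *TYMS* (8.32), *SAMHD1* (7.67), *DCK* (4.82) and *RRM2* (4.26). There only *DTYMK* and *DUT* overlapped. By full exon length, *RRM2B* moved from place 5 to 1, *TK1* from 2 to 5 and *RRM2* from 7 to 9. Full lengths include bases shared with other genes, where reads had not been counted. Such bases are at least 18.8% of the *TYMS* length, 14.5% of *DUT* and 20.2% of *RRM2*. The order of the 9 genes without these bases was not computed, so the places hold for full lengths only. With all its counts divided by the length of its longest own stretch, *RRM2* came to 28.4 and 10.4 CPM per kb in control and after Erastin. These values are high limits, since they treat every read as lying on that stretch.

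Genes of S phase and targets of p53 were set beside these changes, in lists chosen with earlier results of these data known. All 15 S-phase genes were lower by adjusted p and 14 of them by both thresholds, and their median log2 fold change was −1.53. Over all tested genes, 23.7% were lower by adjusted p and 9.34% by both thresholds. The largest falls were those of the helicase subunit *MCM5* (−2.52), the helicase cofactor *CDC45* (−2.33) and *MCM7* (−2.25), while the sliding clamp *PCNA* fell by 0.49 on the log2 scale. *TK1*, at −2.53, stood beside *MCM5*, and the other 7 lower genes, *RRM2* and *DTYMK* included, changed less than the median of the list. All 15 p53 targets were higher by adjusted p and 14 by both thresholds, with a median of 1.47. Over all tested genes, 23.2% were higher by adjusted p and 6.24% by both thresholds. *TP53I3* (3.21), the p53 antagonist *MDM2* (2.43) and the CDK inhibitor *CDKN1A* (2.43) rose most, and *RRM2B* at 1.56 lay near the middle of the list. No difference between the 9 genes and these lists was tested.

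**Figure D3:**
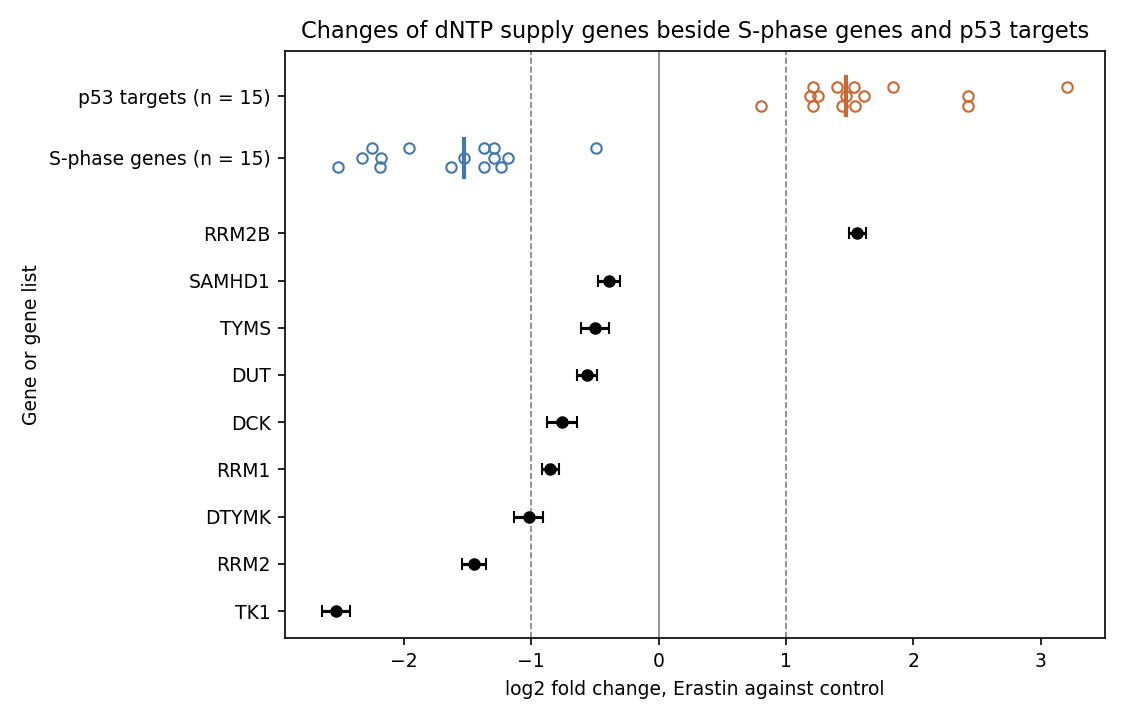
log2 fold change (Erastin against control) of the 9 dNTP supply genes (black points, bars are ± 1 SE) and of 15 S-phase genes (blue) and 15 p53 targets (orange), 1 circle per gene with a line at the median. Dashed lines mark the threshold of 1 in either direction; *RRM2B* lies among the p53 targets, and *TK1*, *RRM2* and *DTYMK* lie past the lower line.

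Regulators that act on these proteins or their promoters also differed. Among 8 regulators of the proteins, 4 were called lower, namely the kinases *CDK1* (−2.97) and *CDK2* (−1.47), which phosphorylate SAMHD1, their partner *CCNA2* (−2.79), and *CCNF* (−1.44), the F-box protein that targets RRM2 for degradation. By adjusted p, 6 of the 8 were lower. Over all tested genes 9.34% were called lower, and 23.7% were lower by adjusted p. Among 12 tested E2F and DREAM genes of 13 listed, 6 were called lower, including the activator *E2F1* (−1.62), the repressor *E2F8* (−1.67), *MYBL2* (−2.82) and *FOXM1* (adjusted p = 4.46e-09 by edgeR). By adjusted p, 7 of the 12 were lower and 2 higher, where 23.2% of all tested genes were higher. The higher genes were the activator *E2F3* (log2 fold change 0.49, adjusted p = 0.00315 by edgeR) and the repressor *E2F7* (0.85, adjusted p = 1.29e-06 by edgeR). Changes of protein, activity and dNTP pools were not analysed here.

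The rest of nucleotide metabolism is described by 7 lists. Among their 55 genes, 54 were tested (*CMPK2* had 0 counts in all libraries), of which 6 were called lower and 1 higher, beside 9.34% lower and 6.24% higher over all tested genes. By adjusted p, 26 were lower, 8 were higher and 20 did not pass, beside 23.7% lower and 23.2% higher over all tested genes, and the median log2 fold change was −0.30. The thymidylate cycle partners, which supply and recycle folate for *TYMS*, held 2 lower genes of 4, among them *MTHFD1* (−0.56, adjusted p = 3.91e-05 by edgeR). *SHMT2* (0.13, adjusted p = 0.169) and *SHMT1* (0.45, adjusted p = 0.35) did not pass.

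Of the 7 lists, de novo purine synthesis had the largest share of lower genes, 10 of 13 by adjusted p, with a median log2 fold change of −0.52. Past both thresholds was only *ADSS1*, the muscle-type adenylosuccinate synthetase, a low gene here (4.64 and 4.38 CPM in control, 1.00 and 1.72 CPM after Erastin, log2 fold change −1.72, adjusted p = 0.000817 by edgeR). Its paralogue *ADSS2* did not pass (−0.11, adjusted p = 0.242). *GMPS*, which makes GMP, went from 155.7 and 158.4 CPM to 84.5 and 86.9 CPM (−0.87, adjusted p = 8.10e-07). De novo pyrimidine synthesis was mixed, with 2 genes lower, 1 higher (*UMPS*, 0.42, adjusted p = 0.00337) and 2 not passing. *CTPS2*, a CTP synthetase, was called lower at −1.04 (18.7 and 15.9 CPM against 8.43 and 8.43 CPM, adjusted p = 0.000109 by edgeR), and its paralogue *CTPS1* did not pass (adjusted p = 0.981). The *CTPS2* call was lost with library totals and without control replicate 1, where its size came to less than 1.

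Salvage genes other than *TK1* and *DCK* moved in both directions, by adjusted p, with 4 higher, 4 lower and 3 not passing among 11 and a median of 0.11. *UPP1*, uridine phosphorylase, was the gene called higher: 76.8 and 72.3 CPM in control and 226.0 and 199.6 CPM after Erastin, a log2 fold change of 1.51 (SE 0.0794, adjusted p = 3.32e-08 by edgeR). Nucleotide kinases held 1 lower, 1 higher (*CMPK1*, 0.23) and 5 not passing among the 7 tested.

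Among 11 genes of nucleotide breakdown and pool cleaning, 6 were lower and 2 higher by adjusted p, and 3 were called lower. *NT5E* (CD73), the surface enzyme that turns AMP into adenosine, had the highest counts of the list, with 1317 and 1420 CPM in control and 522.0 and 557.3 CPM after Erastin (log2 fold change −1.34, adjusted p = 2.65e-08 by edgeR). *NUDT1* (MTH1), which removes oxidised purine dNTPs from the pool, went from 16.0 and 16.2 CPM to 6.69 and 5.44 CPM (−1.41, adjusted p = 1.99e-05). *TYMP*, thymidine phosphorylase, had 18 to 57 counts per library (−1.31, adjusted p = 0.0246), and its call was lost with DESeq2 and without control replicate 1, control replicate 2 or Erastin replicate 2. Of the 3 equilibrative nucleoside transporters, *SLC29A1* (ENT1), which carries nucleosides across the plasma membrane, was called lower: 44.7 and 45.1 CPM in control and 11.9 and 15.4 CPM after Erastin (−1.72, SE 0.128, adjusted p = 6.37e-07 by edgeR). *SLC29A2* (−0.62, adjusted p = 0.0637) and *SLC29A3* (0.28, adjusted p = 0.22) did not pass.

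**Figure D4:**
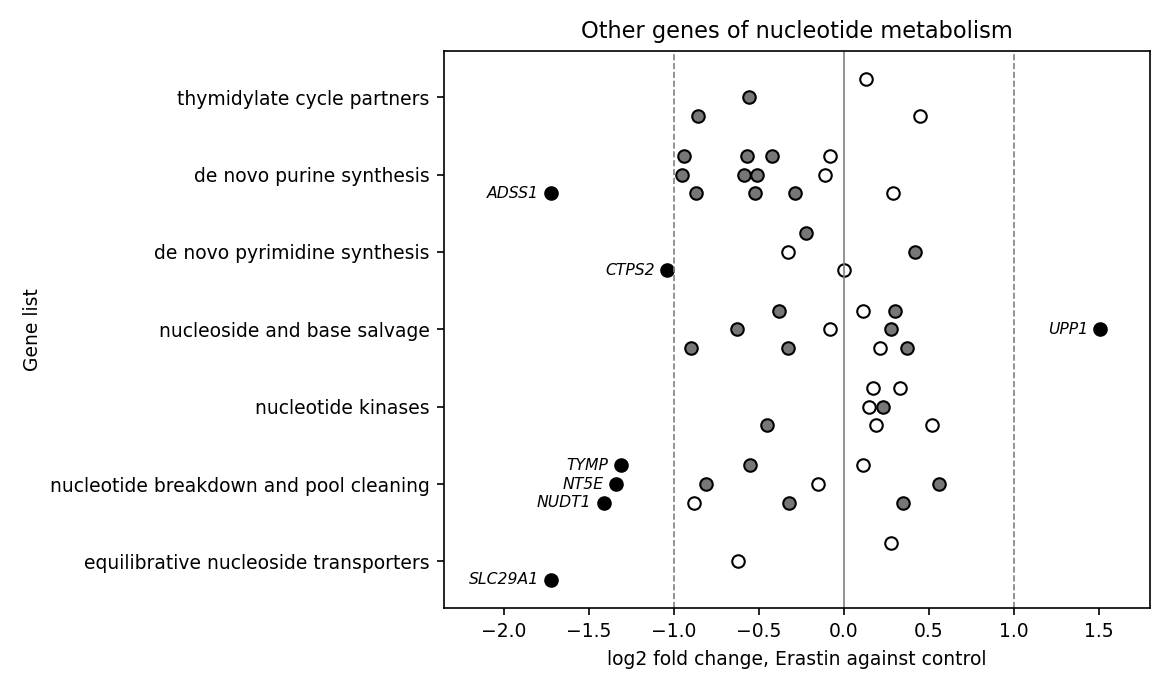
log2 fold change (Erastin against control) of 54 tested genes in 7 lists of nucleotide metabolism, 1 point per gene, spread vertically only for legibility. Black points passed both thresholds and are named, grey points passed the adjusted p alone and white points neither; 6 black points lie left of −1 and 1, *UPP1*, right of 1.

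The profile over the 4 libraries was compared with those of all other tested protein-coding genes, by the Euclidean distance between log2 CPM values centred on each gene's mean. The nearest genes to *RRM2* were *ATAD2* (distance 0.0402, 82.8 and 89.9 CPM in control and 33.0 and 29.3 CPM after Erastin), *RTN4RL2* (0.0706) and *LIN9* (0.0856). The nearest to *RRM2B* were *NIPAL3* (distance 0.0219, 77.8 and 75.2 CPM in control and 222.1 and 225.8 CPM after Erastin), *BSN* (0.0251) and *MT1X* (0.0627). With 4 libraries in 2 groups, such a distance reflects the size of the change and the differences within each pair of replicates. Markers of other cell types were read beside these changes. Of the 5 neuronal markers, *SNAP25* was called lower (1070 and 1215 counts against 95 and 135) and the summed level went from between 66.2 and 71.0 CPM to between 26.7 and 28.2 CPM. Of the 5 mesenchymal markers, 2 were called lower (*FN1* and *COL1A1*), with sums of 8276 and 8756 CPM in control and 3923 and 3988 CPM after Erastin. Of the 7 glial markers, *NES* was called lower, with sums, made up mostly of *VIM*, of 2593 and 2517 CPM against 1617 and 1727 CPM. *GFAP* stood in the other direction, at 1.504 and 1.32 CPM in control and 2.31 and 2.58 CPM after Erastin (log2 fold change 0.79, adjusted p = 0.0696 by edgeR), and did not pass. Their part in the changes of the dNTP supply genes was not tested.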

How the data were processed

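RNA-seq of U87MG cells was analysed from 4 libraries, 2 of control cells and 2 of cells given Erastin at 10 μM for 72 h. The authors aligned reads to GRCh38 with HISAT2 and deposited raw counts of reads per gene, without normalisation. The methods name htseq-count, whereas the header of the deposited table names featureCounts 2.0.3 and the Ensembl release 90 annotation. Counting took no account of strand, left out reads on more than 1 gene, and took both reads of a pair separately. The authors' deposited values of 1 control library, entered here as estimated counts, were whole, and rounding changed 0 values in any library. No source names molecular identifiers, so PCR copies may count as separate reads and totals overstate precision.

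Libraries were grouped by their labels. The genes and gene lists were chosen with earlier results of these data known. In R 4.3.3, edgeR 4.0.16 was run with filterByExpr (minimum count 10), TMM factors (0.971 to 1.02) and the two-sided quasi-likelihood test without a block, adjusted by Benjamini-Hochberg over 16751 genes. The biological coefficient of variation was 10.3%. The standard error was the size of the log2 fold change divided by the square root of F. The methods were tested on simulated data. Alternatives were DESeq2 1.42.0, RLE factors, library totals, no filter, 10 counts in every library, a replicate block, thinning, halved counts and each library left out.

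Named were all 9 genes with their neighbours within 1000 bases, the pathway genes past both thresholds with a mean of at least 1 CPM, the 3 largest changes of each reference list with *CDKN1A*, *MDM2*, *E2F1* and *CCNF*, and the 3 nearest profiles of *RRM2* and *RRM2B*. Other genes named were chosen after their values were seen. Gene symbols were found for 57532 of 58302 identifiers. Promoter sequences are those of RefSeq. Values of some genes covered by this rule or these lists are not reported here. ChIP-seq and HiChIP data were not analysed here.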

Additional observations from a re-analysis of the deposited data

How the results depend on the processing

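Each of the 9 genes was recomputed under 12 alternatives. Of these 108 values, 105 kept the call, 3 lost it (all *DTYMK*, at −0.97 with library totals, −0.98 without control replicate 1 and −0.84 without Erastin replicate 2) and 0 changed sign. Without 1 library at a time, log2 fold changes ranged from −1.55 to −1.36 for *RRM2*, 1.52 to 1.58 for *RRM2B*, −2.68 to −2.37 for *TK1* and −1.23 to −0.84 for *DTYMK*. Between 2 and 3 of the 9 genes were called lower and 1 higher in every alternative, and of the pathway genes 5 to 7 were called lower and 1 higher. With library totals the median of all genes moved from −0.0026 to 0.0471. With the replicate number as a block (replicate block), 3 of the 9 genes were called lower and 1 higher, and 6 and 1 of the pathway genes, and no call of the 9 changed. Same-numbered libraries did not deviate together (correlation 0.0203), and nothing in the labels pairs them. Of the 7 pathway genes called, 5 kept the call in every alternative, and *CTPS2* and *TYMP* did not.

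The difference in the *RRM2B* share of small-subunit transcripts, 31.5 percentage points, was 30.8 without division by length, 31.6 after thinning and 30.5 to 32.5 without 1 library. It was 35.3 with exon bases of no other gene and 44.6 with the longest own stretch of *RRM2* as its length. These lengths, used for the sum of both small subunits too, and halved counts were chosen after seeing the data. Where leaving out a library left 1 in a group, that library was assumed to vary like the other group.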
